A study of Mus musculus with 9 samples.

Results

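The genes described here encode subunits of cardiac potassium channels. They are 10 of the 55401 genes in the deposited count table and were chosen by symbol, each symbol matching 1 gene. By role they are the inward rectifier gene Kcnj2, the muscarinic channel genes Kcnj3 and Kcnj5, the ATP-sensitive channel genes Kcnj11 and Abcc9, the delayed rectifier genes Kcnq1 and Kcnh2, and the transient outward current genes Kcnd2, Kcnd3 and Kcnip2.

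RNA-seq was made from primary neonatal mouse ventricular myocytes, heart muscle cells taken from 1-day-old C57BL/6J (WT) pups and kept in culture, with 9 libraries in 3 groups of 3. The control group was kept in normoxia in complete medium, which was DMEM with 10% FBS (fetal bovine serum). The hypoxia group was kept for 6 h in glucose-free, serum-free DMEM inside a sealed chamber made oxygen-poor with AnaeroPack-MIC. The hypoxia + rSRGN group had the same chamber, medium and time with recombinant SRGN (serglycin, a secreted proteoglycan) added, at a dose the labels do not give. Low oxygen, the lack of glucose and the lack of serum were applied together, and their effects cannot be told apart here. The labels name no batch and do not say whether the libraries of a group come from separate cultures or pups, so the p-values measure only the spread between these libraries, which may be technical.

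Potassium channels carry the outward currents that end the cardiac action potential and the inward rectifier current that holds the resting potential of a ventricular myocyte. Transient outward channels open early in the action potential, delayed rectifiers open later and bring repolarization to completion, and ATP-sensitive channels open when ATP in the cell falls. The muscarinic channel, opened by G proteins downstream of acetylcholine and adenosine receptors, is best known from the atria and the nodes.

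Poly(A)-enriched RNA was sequenced on an Illumina NovaSeq, and the values are counts of fragments per gene. Library totals lay between 21669017 and 22781557 counts in control (median 22472430). In hypoxia they lay between 16583985 and 18148474 (median 17434604), and in hypoxia + rSRGN between 16640239 and 20826701 (median 18772474). Libraries of 1 group differed by more than sampling noise, with a chi-square of 3.63 to 13.1 per degree of freedom for each pair. Levels are given as CPM, counts scaled to a common library total, after TMM scaling of the library totals. A level in CPM per kb is also divided by the exon length of the gene, and only this scale is used to compare different genes.

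In control the labelled cell type was visible in its markers. The 12 cardiomyocyte markers summed to 45442, 53514 and 56062 CPM in the control libraries, and the 4 ventricular markers to 4610, 4874 and 5126 CPM. Of each marker list used here, 0 genes were at 0 over the 9 libraries. Other cell types were present too, since the 9 fibroblast markers summed to 8748, 9996 and 10348 CPM in the same control libraries.

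On the per kb scale Kcnj5 and Abcc9 had the highest control levels of the 10 genes, at 47.5 ± 1.97 and 45.5 ± 1.40 CPM per kb (SD, n = 3). The libraries of these genes overlapped, so their order is not resolved. Kcnh2 followed at 35.5 ± 3.41 CPM per kb, then Kcnj11 at 20.7 ± 1.52 and Kcnj3 at 19.5 ± 1.53, whose libraries also overlapped. Lower in the order, each without overlap with the next, came Kcnq1 at 11.6 ± 1.44 CPM per kb, Kcnj2 at 9.32 ± 0.272, Kcnip2 at 6.84 ± 0.332, Kcnd2 at 1.63 ± 0.255 and Kcnd3 at 0.249 ± 0.0541. The control levels of the 10 genes therefore span a wide range, with Kcnd2 and Kcnd3 at the bottom.

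The order was less resolved in hypoxia. Kcnj5 was still at the top, at 5.75 ± 0.612 CPM per kb (SD, n = 3), without overlap with the next gene. Kcnh2 at 3.80 ± 0.708 CPM per kb, Abcc9 at 2.98 ± 0.818, Kcnj3 at 1.51 ± 0.623, Kcnj2 at 1.15 ± 0.129, Kcnq1 at 1.02 ± 0.304, Kcnj11 at 0.941 ± 0.215 and Kcnip2 at 0.438 ± 0.295 formed a chain in which each gene overlapped the next. Kcnd2 at 0.102 ± 0.0203 CPM per kb and Kcnd3 at 0.0481 ± 0.0311 lay below them and overlapped each other. The gene that moved farthest in this order was Kcnj11, from place 4 in control to place 7 in hypoxia.

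In hypoxia + rSRGN the top gene was again Kcnj5, at 7.69 ± 0.358 CPM per kb (SD, n = 3). Kcnh2 at 6.29 ± 0.278 and Abcc9 at 5.66 ± 0.388 CPM per kb overlapped, and Kcnj3 stood apart below them at 3.03 ± 0.586. Kcnj2 at 1.76 ± 0.0731, Kcnq1 at 1.74 ± 0.0950 and Kcnj11 at 1.67 ± 0.359 CPM per kb could not be ordered. Kcnip2 at 0.979 ± 0.156, Kcnd2 at 0.189 ± 0.0470 and Kcnd3 at 0.0584 ± 0.0107 CPM per kb followed without overlap.

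**Figure D1:**
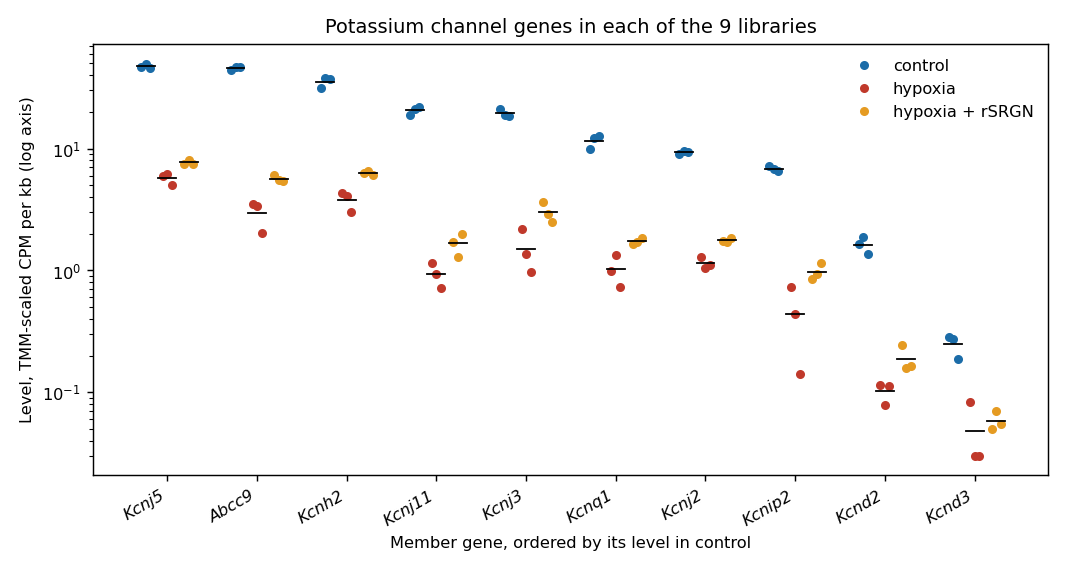
Level of each potassium channel gene in each library, in TMM-scaled CPM per kb on a log axis, with 1 point per library and a line at the mean of each group of 3. The control points of all 10 genes lie above their hypoxia points, and the hypoxia and hypoxia + rSRGN points overlap for Kcnd3 alone. The share of all tested genes without overlap was not computed, so this only describes the points shown.

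Summed over the 10 genes, the level was 190.3, 205 and 199.9 CPM per kb in the control libraries. The hypoxia libraries had 20.4, 18.9 and 13.9 CPM per kb, and the hypoxia + rSRGN libraries 29.7, 29.0 and 28.5. The 3 groups did not overlap, and hypoxia replicate 3 was the lowest of the 9 libraries. The control mean was 11.2-fold the hypoxia mean, and the hypoxia + rSRGN mean was 1.64-fold the hypoxia mean. In bulk samples fewer cells of a type and less RNA per cell cannot be told apart.

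The make-up of that sum differed between groups as well. The share of Kcnj5 in the summed per kb level was 23.98 ± 0.740% in control, 32.8 ± 3.49% in hypoxia and 26.5 ± 1.45% in hypoxia + rSRGN (SD, n = 3). That of Kcnj11 was 10.4 ± 0.488%, 5.28 ± 0.343% and 5.74 ± 1.29% in the same order, and that of Abcc9 22.9 ± 0.281%, 16.6 ± 1.72% and 19.4 ± 0.917%. The share of Kcnh2 went from 17.9 ± 1.11% in control to 21.5 ± 0.175% in hypoxia. So the ATP-sensitive channel genes held a smaller part of the sum in hypoxia than in control, and Kcnj5 and Kcnh2 a larger one; these shares were not tested.

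Hypoxia against control asks how 6 h of low oxygen in the poorer medium changed the transcripts of the cultures. All 10 genes passed the filter on low counts, which kept 16762 genes. A gene that passes through 1 group alone is mostly limited to calls in 1 direction, here and in the lists below. Kcnd3 had 15, 5 and 5 counts in hypoxia and was not tested when only hypoxia and hypoxia + rSRGN were fitted. Its calls lower are therefore given as a description. Each gene was compared by the quasi-likelihood test of edgeR, with p-values adjusted by Benjamini-Hochberg over those 16762 genes, and called where the adjusted p was below 0.05 and the fold change at least 1.5. Of the 10 potassium channel genes, 10 were called lower and 0 higher in hypoxia, against 25.1% of all tested genes called lower and 26.4% called higher. The median log2 fold change was -3.60 over the 10 genes (range -4.45 to -2.34) and 0.05 over all tested genes. The median gene of the 10 was thus 12.1-fold lower in hypoxia.

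Hypoxia + rSRGN against hypoxia asks what the added protein changed under the same low oxygen and medium. Of the 10 genes, 7 were called higher and 0 lower, against 2.27% of all tested genes called higher. Kcnj5, Kcnd2 and Kcnd3 were not called. The median log2 fold change of the 10 genes was 0.79 (range 0.27 to 1.14), and that of all tested genes was -0.03. The number of genes called in this comparison over the whole table, 525, depended on single libraries, with 321 without hypoxia replicate 3 and 699 without hypoxia replicate 2.

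Against control, hypoxia + rSRGN had 10 of the 10 genes called lower, where 24.7% of all tested genes were called lower. The median log2 fold change was -2.71 (range -3.64 to -2.07) beside 0.01 over all tested genes, a median level 6.55-fold lower. This comparison shares its control libraries with hypoxia against control and its other libraries with the rSRGN comparison, so it is no independent result.

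**Figure D2:**
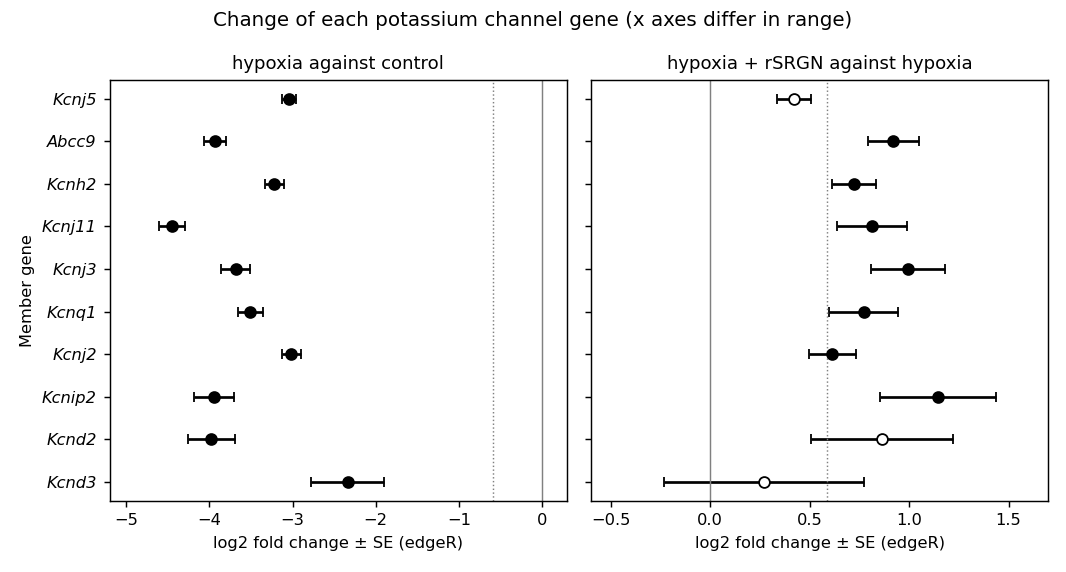
Log2 fold change of each potassium channel gene from edgeR with its standard error, for hypoxia against control (left, 10 of 10 called) and hypoxia + rSRGN against hypoxia (right, 7 of 10 called). Filled points are called genes, open points are not called, the dotted lines mark a fold change of 1.5, and the x axes differ in range.

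Kcnj2 encodes a pore subunit of the strong inward rectifier that holds the resting potential. The gene (ENSMUSG00000041695.2) spans 111066164 to 111076821 on chromosome 11 of GRCm38 (plus strand). Its level was 49.1, 52.0 and 51.1 CPM in the control libraries, 7.04, 5.66 and 6.08 CPM in hypoxia and 9.53, 9.25 and 10.0 CPM in hypoxia + rSRGN. The libraries of each group lay close together, and no group overlapped another. Kcnj2 had in hypoxia against control a log2 fold change of -3.01 (SE 0.110, adjusted p 3.10e-16), an 8.08-fold lower level. With rSRGN against hypoxia it had a log2 fold change of 0.61 (SE 0.120, adjusted p 0.00152), a 1.53-fold higher level that lies near the fold limit. Without hypoxia replicate 2 that log2 fold change was 0.55, under the limit, and Kcnj2 was not called. Against control, hypoxia + rSRGN had a log2 fold change of -2.40 for Kcnj2 (adjusted p 7.50e-15).

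The muscarinic channel is assembled from the pore subunits that Kcnj3 and Kcnj5 encode. Kcnj3 (ENSMUSG00000026824.11) spans 55435970 to 55598145 on chromosome 2 of GRCm38 (plus strand). Its level was 111, 98.2 and 95.9 CPM in control, 11.4, 7.05 and 5.10 CPM in hypoxia and 19.1, 15.2 and 13.1 CPM in hypoxia + rSRGN. The hypoxia libraries were spread, with replicate 1 above the other two, and still every one lay below each hypoxia + rSRGN library. Kcnj3 had a log2 fold change of -3.68 in hypoxia against control (SE 0.176, adjusted p 2.71e-14), a 12.8-fold lower level. With rSRGN it was 0.99 against hypoxia (SE 0.186, adjusted p 0.00105), a 1.99-fold higher level, and -2.69 against control (adjusted p 1.88e-12).

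Kcnj5 (ENSMUSG00000032034.6), at 32314707 to 32344350 on chromosome 9 (minus strand), gave 218, 233 and 217 CPM in control. The hypoxia libraries had 28.0, 29.1 and 23.7 CPM of Kcnj5, and the hypoxia + rSRGN libraries 34.9, 38.0 and 35.2 CPM. Here too the groups did not overlap, but the libraries with and without rSRGN lay nearer each other. The log2 fold change was -3.05 in hypoxia against control (SE 0.0853, adjusted p 6.07e-18), an 8.27-fold lower level. Against hypoxia, the cultures with rSRGN had a log2 fold change of 0.42 (SE 0.0859, adjusted p 0.00202), a ratio of 1.34 that is under the fold limit, so Kcnj5 was not called there. Hypoxia + rSRGN against control gave a log2 fold change of -2.63 for Kcnj5 (adjusted p 5.94e-17). Whether the responses of Kcnj3 and Kcnj5 to rSRGN differ was tested only through their ratio, given with the other ratios.

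ATP-sensitive channels of the heart muscle have a pore encoded by Kcnj11 and a regulatory sulfonylurea receptor, which Abcc9 encodes. Kcnj11 (ENSMUSG00000096146.2) spans 46093953 to 46100764 on chromosome 7 of GRCm38 (minus strand). Its level was 69.6, 77.9 and 80.3 CPM in control, 4.24, 3.47 and 2.66 CPM in hypoxia and 6.32, 4.72 and 7.34 CPM in hypoxia + rSRGN. No groups overlapped, although hypoxia replicate 1 and hypoxia + rSRGN replicate 2 were close. Of the 10 genes Kcnj11 had the largest fall, with a log2 fold change of -4.45 in hypoxia against control (SE 0.152, adjusted p 9.51e-17), a 21.8-fold lower level. Its log2 fold change with rSRGN against hypoxia was 0.81 (SE 0.177, adjusted p 0.00337), a 1.76-fold higher level. It remained far below control with rSRGN, at a log2 fold change of -3.64 (adjusted p 1.20e-15).

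Abcc9 (ENSMUSG00000030249.15), at 142587862 to 142702315 on chromosome 6 (minus strand), had the most counts of the 10 genes over the 9 libraries. The control libraries had 367, 388 and 388 CPM of Abcc9, the hypoxia libraries 29.5, 28.3 and 17.1 CPM and the hypoxia + rSRGN libraries 51.1, 46.1 and 45.0 CPM. Hypoxia replicate 3 stood below the other hypoxia libraries, and no groups overlapped. Abcc9 had a log2 fold change of -3.93 in hypoxia against control (SE 0.130, adjusted p 6.31e-17), a 15.2-fold lower level. With rSRGN it was 0.92 against hypoxia (SE 0.127, adjusted p 9.1e-05), a 1.89-fold higher level, and -3.01 against control (adjusted p 2.79e-15).

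The slow delayed rectifier has its pore from Kcnq1, whose protein works with the auxiliary subunit encoded by Kcne1. Kcnq1 (ENSMUSG00000009545.14) spans 143106362 to 143427042 on chromosome 7 of GRCm38 (plus strand). Its level was 40.9, 49.9 and 52.0 CPM in control, 4.03, 5.49 and 3.01 CPM in hypoxia and 6.79, 7.03 and 7.55 CPM in hypoxia + rSRGN. The hypoxia + rSRGN libraries were tight and all above the hypoxia libraries, of which replicate 2 was the highest. Kcnq1 had a log2 fold change of -3.51 in hypoxia against control (SE 0.153, adjusted p 5.27e-15), an 11.4-fold lower level. Added rSRGN gave 0.77 against hypoxia (SE 0.172, adjusted p 0.00401), a 1.71-fold higher level. Counting took no account of strand, and 121 of the exon bases of Kcnq1 (2.96%) also belong to Kcnq1ot1 on the other strand, which had 846 counts over the control libraries and 717 over the hypoxia libraries.

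Kcnh2 encodes the pore subunit of the rapid delayed rectifier. The gene (ENSMUSG00000038319.14) spans 24319589 to 24351604 on chromosome 5 of GRCm38 (minus strand). Its level was 153, 183 and 179 CPM in control, 21.0, 19.8 and 14.5 CPM in hypoxia and 30.3, 31.9 and 29.2 CPM in hypoxia + rSRGN. Control replicate 1 and hypoxia replicate 3 were the low libraries of their groups, and the groups did not overlap. Kcnh2 had a log2 fold change of -3.22 in hypoxia against control (SE 0.109, adjusted p 8.73e-17), a 9.30-fold lower level. The value with rSRGN against hypoxia was 0.72 (SE 0.111, adjusted p 0.000223), a 1.65-fold higher level. Without hypoxia replicate 3, the low library, that log2 fold change was 0.58 and Kcnh2 fell just under the fold limit. With rSRGN the log2 fold change against control was -2.74 for Kcnq1 (adjusted p 1.37e-13) and -2.49 for Kcnh2 (adjusted p 3.71e-15).

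Pores encoded by Kcnd2 and Kcnd3 carry transient outward current, with the calcium-binding subunit encoded by Kcnip2 attached. Kcnip2 (ENSMUSG00000025221.16) spans 45791839 to 45816061 on chromosome 19 of GRCm38 (minus strand). Its level was 26.5, 24.9 and 24.1 CPM in control, 2.69, 1.62 and 0.521 CPM in hypoxia and 3.10, 3.47 and 4.23 CPM in hypoxia + rSRGN. The hypoxia libraries were widely spread, from 9 counts in replicate 3 to 50 in replicate 1, and no groups overlapped. For Kcnip2 the log2 fold change was -3.94 in hypoxia against control (SE 0.245, adjusted p 2.56e-12), a 15.4-fold lower level that became 23.4-fold without hypoxia replicate 1. In hypoxia + rSRGN against hypoxia it was 1.14 (SE 0.290, adjusted p 0.00970), a 2.21-fold higher level. Single libraries moved this value, to 1.75 without hypoxia replicate 1 and to 0.74 without hypoxia replicate 3. DESeq2 in place of edgeR gave a log2 fold change of 1.19 with an adjusted p of 0.0660, which is no call, and over all alternatives the adjusted p ran from 4.13e-06 to 0.0660.

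Kcnd2 (ENSMUSG00000060882.5), at 21215503 to 21729805 on chromosome 6 (plus strand), had 190, 213 and 145 counts in control. The hypoxia libraries had 11, 7 and 10 counts of Kcnd2 and the hypoxia + rSRGN libraries 21, 17 and 16. In scaled levels these are 8.54, 9.62 and 7.01 CPM in control, 0.591, 0.404 and 0.579 CPM in hypoxia and 1.25, 0.819 and 0.845 CPM in hypoxia + rSRGN. The groups did not overlap, at counts low enough that a few fragments matter. The log2 fold change was -3.98 in hypoxia against control (SE 0.282, adjusted p 2.62e-11), a 15.8-fold lower level. With rSRGN it was 0.86 against hypoxia (SE 0.358, adjusted p 0.106), and Kcnd2 was not called. At these counts a change of this size did not pass the test.

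Kcnd3 (ENSMUSG00000040896.16), at 105452330 to 105674002 on chromosome 3 (plus strand), had the fewest counts of the 10 genes in each group. There were 61, 58 and 37 counts in the control libraries, 15, 5 and 5 in hypoxia and 8, 14 and 10 in hypoxia + rSRGN. These are 2.74, 2.62 and 1.79 CPM in control, 0.806, 0.289 and 0.290 CPM in hypoxia and 0.477, 0.675 and 0.528 CPM in hypoxia + rSRGN. Control stood apart from both other groups, while hypoxia replicate 1 lay above all libraries with rSRGN, so these groups overlapped. The log2 fold change of Kcnd3 was -2.34 in hypoxia against control (SE 0.436, adjusted p 5.89e-05), a 5.05-fold lower level that became 8.09-fold without hypoxia replicate 1. With rSRGN it was 0.27 against hypoxia (SE 0.503, adjusted p 0.777), and Kcnd3 was not called. Single libraries moved this value too, to 0.95 without hypoxia replicate 1, to 0.03 without hypoxia replicate 2 or 3 and to 0.11 without hypoxia + rSRGN replicate 2. Against control, hypoxia + rSRGN had log2 fold changes of -3.12 for Kcnd2 (adjusted p 3.28e-10), -2.07 for Kcnd3 (adjusted p 0.000165) and -2.80 for Kcnip2 (adjusted p 1.24e-10).

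Ratios of partner subunits show whether the parts of a channel changed by the same factor. A log2 ratio of per kb levels was taken in each library, and groups were compared with a two-sided exact permutation test over the libraries, which with 3 against 3 cannot go below p 0.1. Of 10 such tests, 7 had no overlap between the groups. How often other gene pairs separate in this way was not computed, so the 7 is a description. With that floor 0 of the tests could have a p below 0.05. The lowest Benjamini-Hochberg adjusted exact p over the 10 tests was 0.143. Another 11 ratio comparisons had a gene under 10 counts in some library and are given as counts only.

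Kcnq1 to Kcne1 was the ratio that moved most among those tested in hypoxia against control. Kcne1 had 2352, 2394 and 2243 counts in control, 67, 66 and 42 in hypoxia and 134, 158 and 165 in hypoxia + rSRGN. The log2 ratio of Kcnq1 to Kcne1 was -1.53 ± 0.166 in control, -0.02 ± 0.183 in hypoxia and -0.53 ± 0.0626 in hypoxia + rSRGN (SD, n = 3), with no overlap between any of the groups. In control, then, the auxiliary gene was the more abundant of the pair per kb, and in hypoxia the levels were near equal. The difference was 1.51 for hypoxia against control, -0.52 for hypoxia + rSRGN against hypoxia and 1.00 for hypoxia + rSRGN against control, each with an exact p of 0.1, the smallest possible.

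The log2 ratio of Kcnj11 to Abcc9 was -1.14 ± 0.0647 in control, -1.65 ± 0.176 in hypoxia and -1.79 ± 0.339 in hypoxia + rSRGN (SD, n = 3). Its difference was -0.51 for hypoxia against control (exact p 0.1, no overlap), -0.64 for hypoxia + rSRGN against control (exact p 0.1, no overlap) and -0.14 for hypoxia + rSRGN against hypoxia (exact p 0.7, overlap). The pore gene thus stood lower relative to its receptor gene in both hypoxic groups than in control. For Kcnj3 to Kcnj5 the log2 ratio was -1.29 ± 0.140 in control, -2.01 ± 0.493 in hypoxia and -1.36 ± 0.296 in hypoxia + rSRGN (SD, n = 3). Its difference was -0.72 for hypoxia against control (exact p 0.1, no overlap), 0.65 for hypoxia + rSRGN against hypoxia (exact p 0.3, overlap) and -0.07 for hypoxia + rSRGN against control (exact p 0.7, overlap). A difference between the responses of Kcnj3 and Kcnj5 to rSRGN was therefore not resolved by 3 libraries a group.

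Kcnj12, a further inward rectifier gene beside Kcnj2, had 479, 545 and 439 counts in control, 4, 15 and 15 in hypoxia and 16, 36 and 27 in hypoxia + rSRGN. The log2 ratio of Kcnj2 to Kcnj12 could be tested only in hypoxia + rSRGN against control, where it differed by 1.67 (exact p 0.1, no overlap). Kcnj8, the other pore gene of ATP-sensitive channels, had 10, 4 and 7 counts in control, 17, 4 and 4 in hypoxia and 19, 7 and 15 in hypoxia + rSRGN. Per kb, the control level of Kcnj8 was 0.127 ± 0.0530 CPM per kb (SD, n = 3), far under the 20.7 CPM per kb of Kcnj11. The ratios of Kcnd2 to Kcnd3 and of Kcnip2 to their sum rest on the counts already given.

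Beyond the 10 genes, 69 genes for other potassium channel pores were listed, and 28 of them passed the filter. In hypoxia against control 12 of the 28 were called lower, 6 higher and 10 not at all, with a median log2 fold change of -0.32 beside -3.60 for the 10 cardiac genes. Over all tested genes 25.1% were called lower and 26.4% higher, so the count of pore genes called higher is no more than that share gives. Among the pore genes with a mean of at least 2 CPM that were called lower, log2 fold changes were -5.12 for Kcnj12, -3.86 for Kcng2, -3.85 for Kcnk3, -3.48 for Kcnn2, -3.37 for Kcna4, -3.10 for Kcnh7, -2.17 for Kcnq5 and -1.42 for Kcnn1. Kcnk3, the pore gene of an acid-sensitive background channel, had a level of 73.8 ± 4.82 CPM in control and 5.09 ± 2.32 CPM in hypoxia (SD, n = 3). Higher by the same measure were Kcnk5, at a log2 fold change of 1.85, and Kcnt2, at 1.52. Kcnd1, Kcnj15, Kcnk2 and Kcnk6 were above 2 CPM and not called.

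Of 20 auxiliary subunit genes listed, 19 were in the table and 10 were tested. Hypoxia against control had 5 of them called higher and 2 lower, with 3 not called and a median log2 fold change of 0.54. With so few genes, and 25.1% of all tested genes called lower and 26.4% higher, these counts are given as a description. The genes called lower were Kcne1, at a log2 fold change of -5.03 (SE 0.124, adjusted p 8.63e-19), and Abcc8, at -3.36. Abcc8 encodes the other sulfonylurea receptor, whose level was 45.0 ± 5.31 CPM in control and 4.35 ± 1.09 CPM in hypoxia (SD, n = 3). Kcnab1 and Kcne4 were called higher, with log2 fold changes of 1.35 and 0.64. The remaining genes called higher were Kcnip3, Kcnmb3 and Kcnmb4, and Kcnab3 was not called; these had means under 2 CPM and are named after their values were seen. Kcnmb3, with 0, 0 and 1 counts in control, and Kcnmb4, with 6, 5 and 10, passed the filter through the other groups. Both could be called only higher against control, and the median of 0.54 includes them. Kcnab2 and Kcnmb1 were above 2 CPM and not called.

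In hypoxia + rSRGN against hypoxia 5 of the 28 other pore genes and 2 of the 10 other auxiliary genes were called higher, and 0 lower, where 2.27% of all tested genes were called higher and 0.859% lower. The highest was Kcne1, at a log2 fold change of 1.30 (SE 0.143, adjusted p 1.88e-05), followed by Kcnh7 at 1.24, Kcnj12 at 1.11, Abcc8 at 0.92, Kcnk3 at 0.86 and Kcng2 at 0.86. The call of Kcnj12 was lost without hypoxia replicate 1 (log2 fold change 0.68), hypoxia + rSRGN replicate 2 (0.90) or hypoxia + rSRGN replicate 3 (1.10), and with only the 2 groups compared (1.11). Against control, hypoxia + rSRGN had 12 pore genes called lower and 5 higher of the 28, and 3 auxiliary genes lower and 3 higher of the 10. Over all tested genes 24.7% were called lower and 24.1% higher in that comparison, and the counts higher and those of the auxiliary genes lie near these shares. The pore genes higher there were Kcnk5, Kcnt2, Kcnq3, Kcnj14 and Kcnn4, and the auxiliary genes higher were Kcnab1, Kcnip3 and Kcnmb3. Kcnab3 was the auxiliary gene called lower beside Kcne1 and Abcc8. Of these, Kcnq3, Kcnj14, Kcnn4, Kcnip3, Kcnmb3 and Kcnab3 had means under 2 CPM and are named after their values were seen.

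Partner and scaffold genes that hold or target these channels were listed too, and 7 of 7 were tested. In hypoxia against control 5 were called lower and 0 higher, beside 25.1% and 26.4% of all tested genes. Rnf207, whose product affects the Kcnh2 channel, had a log2 fold change of -3.18, and Cav3, the caveolin of muscle, -2.86. The scaffold genes Ank2 and Akap9, the latter of which anchors a kinase to the Kcnq1 channel, had smaller changes of -1.31 and -0.86. Dlg1 and Nedd4l were not called and are named after their values were seen. In hypoxia + rSRGN against hypoxia 0 of the 7 were called by edgeR. With the unadjusted p of edgeR, and with DESeq2, the count was also 0. Of all tested genes 2.27% were called higher and 0.859% lower by edgeR in that comparison.

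Upstream of the muscarinic channel 10 receptor and G protein genes were listed and tested. In hypoxia against control 5 were called lower and 2 higher, with a median log2 fold change of -0.59, where 25.1% of all tested genes were called lower and 26.4% higher. Chrm2, the muscarinic receptor of heart muscle, went from 248 ± 7.01 CPM in control to 9.93 ± 2.93 CPM in hypoxia (SD, n = 3), a log2 fold change of -4.64. Adora1, the adenosine receptor that acts on the same channel, had a log2 fold change of -4.52, and Rgs6, which limits the signal, -3.35. Gng2 and Gnb5 were called lower at -1.67 and -0.89, while the G protein beta subunit genes Gnb2 and Gnb1 were called higher at 0.71 and 0.69. With rSRGN 1 of the 10 was called higher against hypoxia, beside 2.27% of all tested genes. This was Chrm2, at a log2 fold change of 0.60. That call was lost without hypoxia replicate 3 (0.39), without hypoxia + rSRGN replicate 1 (0.52) or with scaling by library size alone (0.58).

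Of 3 regulators of transient outward current genes, the homeobox genes Irx3 and Irx5 were called lower in hypoxia against control and Klf15, named after its values were seen, was not called, where 25.1% of all tested genes were called lower. Irx3 had 130.4 ± 14.7 CPM in control, 2.08 ± 0.316 CPM in hypoxia and 2.84 ± 0.418 CPM in hypoxia + rSRGN (SD, n = 3). Irx5 had 29.8 ± 2.64, 1.25 ± 0.280 and 1.56 ± 0.436 CPM in the same order. The log2 fold changes in hypoxia against control were -5.97 for Irx3 and -4.58 for Irx5. In hypoxia + rSRGN against hypoxia 0 of the 3 were called by edgeR, and 0 by its unadjusted p or by DESeq2. The edgeR shares of all tested genes there were 2.27% called higher and 0.859% lower.

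Markers of heart muscle cells moved with the 10 genes. The 12 cardiomyocyte markers summed to 5651, 5594 and 3731 CPM in the hypoxia libraries and to 7659, 7215 and 7422 CPM in the hypoxia + rSRGN libraries. Their control mean was 10.4-fold the hypoxia mean, beside 11.2-fold for the 10 channel genes, and the hypoxia + rSRGN mean was 1.49-fold the hypoxia mean, beside 1.64-fold. In hypoxia against control 12 of 12 were called lower, beside 25.1% of all tested genes, with a median log2 fold change of -3.67, and with rSRGN 10 of 12, all but Tnnt2 and Tnnc1, were called higher against hypoxia, beside 2.27% of all tested genes, with a median of 0.78. The most abundant was Myh6, at log2 fold changes of -3.74 and 0.76, and without hypoxia replicate 3 the second of these was 0.54 and not a call. The median changes of the channel genes, -3.60 and 0.79, were close to those of these markers, and hypoxia replicate 3 was the lowest library in both sums. The part of the heart muscle markers in the result was not tested.

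The 4 ventricular markers, with Myl2 the most abundant, summed to 457, 365 and 286 CPM in hypoxia and to 677, 629 and 632 CPM in hypoxia + rSRGN. Of these, 4 were called lower in hypoxia against control, and 3, all but Hey2, higher with rSRGN against hypoxia. Over all tested genes 25.1% were called lower and 26.4% higher in hypoxia against control, and 2.27% higher with rSRGN against hypoxia. The ventricular, atrial and nodal lists are short, so their counts are given as a description. The 5 atrial markers, led by Myl4, summed to 1792, 1896 and 1875 CPM in control, 486, 323 and 283 CPM in hypoxia and 660.4, 574 and 462 CPM in hypoxia + rSRGN. Of the atrial markers 4, all but Nr2f1, were called lower in hypoxia against control, and Myl4 and Bmp10 were called higher with rSRGN. The 5 nodal markers, led by Hcn4, summed to 46.5, 50.9 and 41.8 CPM in control, 16.9, 15.5 and 16.9 CPM in hypoxia and 24.7, 19.2 and 22.4 CPM in hypoxia + rSRGN. Among the nodal markers Hcn4, Tbx3 and Cacna2d2 were called lower and Isl1 higher in hypoxia against control, and Tbx3 and Cacna2d2 higher with rSRGN. All these myocyte lists were lower in hypoxia than in control by their sums, the ventricular list by the largest factor (13.2-fold) and the nodal list by the smallest (2.83-fold).

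Markers of other cell types did not all move that way. The 9 fibroblast markers, led by Col1a1, summed to 20066, 17293 and 19376 CPM in hypoxia and to 19065, 19633 and 19284 CPM in hypoxia + rSRGN, with 7 called higher and 0 lower in hypoxia against control, and Tcf21 called lower with rSRGN. The 4 epicardial markers, led by Msln, summed to 150.3, 145 and 137 CPM in control, 566, 582 and 604 CPM in hypoxia and 571, 526 and 589 CPM in hypoxia + rSRGN, with 4 called higher in hypoxia against control. The sum of the 8 mural cell markers, led by Cspg4, was 703 ± 59.3 CPM in control, 821 ± 11.98 CPM in hypoxia and 975 ± 22.7 CPM in hypoxia + rSRGN (SD, n = 3), with Pdgfrb called higher of 7 tested in hypoxia against control and Rgs5 in hypoxia + rSRGN against hypoxia. So the libraries with low channel gene levels had more of the fibroblast and epicardial transcripts on the CPM scale. Beside these counts, 26.4% of all tested genes were called higher and 25.1% lower in hypoxia against control. The mural count called higher, 1 of 7, is no more than that share of higher calls gives. With rSRGN against hypoxia 2.27% of all tested genes were called higher and 0.859% lower.

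The 7 endothelial markers, led by Tek, summed to 88.5 ± 15 CPM in control, 55.6 ± 7.69 CPM in hypoxia and 60.3 ± 7.84 CPM in hypoxia + rSRGN (SD, n = 3), with 5, all but Tek and Egfl7, called lower in hypoxia against control. For the 8 macrophage markers, led by Cd68, the sums were 47.8 ± 4.8, 10.7 ± 0.798 and 13.2 ± 1.46 CPM, and 8 were called lower. Of these, Adgre1, C1qa, C1qb, C1qc, Mrc1 and Ptprc had 0 to 12 counts in each library outside control. They passed the filter through control and could be called only lower, so the count of 8 is a description. For the 8 neuron and Schwann cell markers, led by Tubb3, the sums were 43.4 ± 1.52, 78.8 ± 8.37 and 59.2 ± 7.02 CPM. Of the 3 tested in hypoxia against control, Tubb3 was called higher and 2 were called lower. Over all tested genes 25.1% were called lower and 26.4% higher in hypoxia against control, and 2.27% higher with rSRGN against hypoxia. With rSRGN against hypoxia Kdr and Dbh were called higher, and 0 macrophage and 0 epicardial markers were called by edgeR, beside 1 macrophage and 0 epicardial markers by its unadjusted p and 0 of each by DESeq2. Markers other than the most abundant of each list are named after their values were seen. The part of these other cell types in the changes of the channel genes was not tested.

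**Figure D3:**
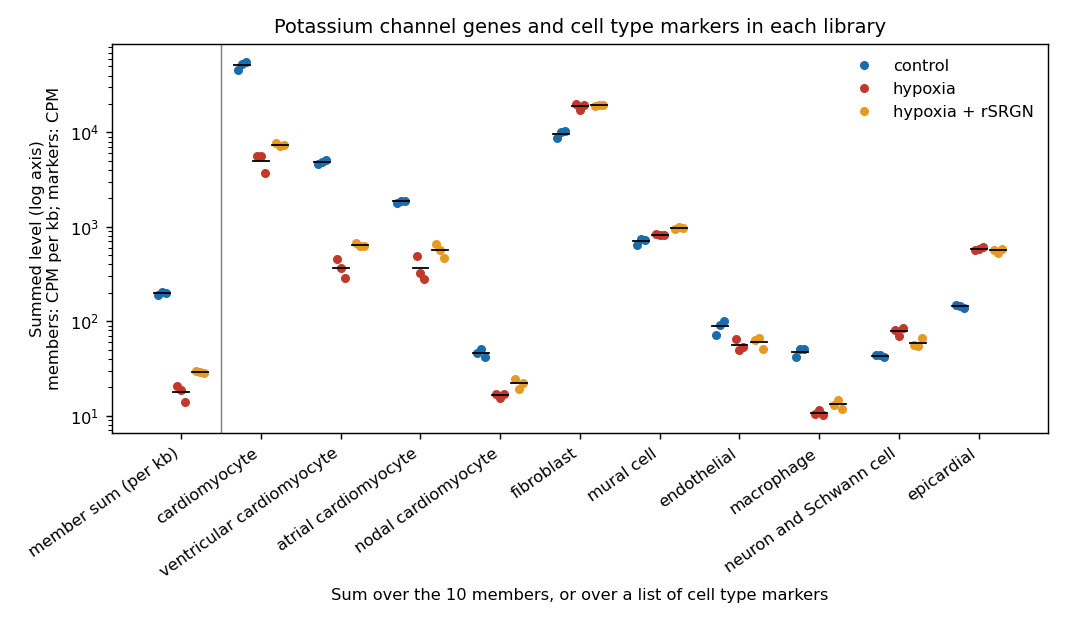
Summed level of the 10 potassium channel genes (left, CPM per kb) and of each list of cell type markers (right, CPM) in each library on a log axis, with 1 point per library and a line at the mean of each group of 3. The cardiomyocyte sum follows the channel gene sum, from 51673 CPM on average in control to 4992 in hypoxia and 7432 in hypoxia + rSRGN, while the fibroblast and epicardial sums are higher in hypoxia than in control.

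Genes whose levels followed Kcnj5, the channel gene with the highest level per kb, were sought among tested genes with a mean of at least 1 CPM. The 5 with the highest Pearson r of log2 CPM over the 9 libraries were Igfbp5 (r 0.999), Ndrg4 (r 0.999), Emilin2 (r 0.999), Fgf1 (r 0.999) and Lmo7 (r 0.999). The 9 points fall in 3 groups and share their libraries and depth, so these values describe the likeness of the group means and carry no p. The log2 fold change in hypoxia against control was -3.60 for Igfbp5, -2.41 for Ndrg4, -3.92 for Emilin2, -3.00 for Fgf1 and -3.61 for Lmo7, beside -3.05 for Kcnj5.

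Since the 10 genes moved together, their promoters were compared. RefSeq windows of GRCm38.p6, from 250 bases before to 50 after a transcription start, were at hand for 8 of the 10, without Kcnj11 and Kcnq1. The 5 shown are those whose RefSeq start lies within 41 bases of the gene start in the count table's annotation. Each is given 5′ to 3′ on the gene's strand and cut to the bases outside annotated exons. They are Kcnj2 at chr11:111065914-111066163 (plus), Kcnj3 at chr2:55435720-55435969 (plus), Kcnj5 at chr9:32344351-32344594 (minus), Abcc9 at chr6:142702316-142702524 (minus) and Kcnip2 at chr19:45816064-45816313 (minus). Capitals mark matches, on either strand, to the motifs searched.
Kcnj2: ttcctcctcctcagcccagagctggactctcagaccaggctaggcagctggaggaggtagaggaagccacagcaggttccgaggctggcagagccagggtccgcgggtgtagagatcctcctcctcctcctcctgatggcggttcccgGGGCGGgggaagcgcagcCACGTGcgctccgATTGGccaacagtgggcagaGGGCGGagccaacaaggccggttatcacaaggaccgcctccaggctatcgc
Kcnj3: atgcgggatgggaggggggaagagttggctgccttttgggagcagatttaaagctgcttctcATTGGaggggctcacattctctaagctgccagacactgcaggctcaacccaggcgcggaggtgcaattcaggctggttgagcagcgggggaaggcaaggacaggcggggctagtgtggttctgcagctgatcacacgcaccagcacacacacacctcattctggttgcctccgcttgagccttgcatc
Kcnj5: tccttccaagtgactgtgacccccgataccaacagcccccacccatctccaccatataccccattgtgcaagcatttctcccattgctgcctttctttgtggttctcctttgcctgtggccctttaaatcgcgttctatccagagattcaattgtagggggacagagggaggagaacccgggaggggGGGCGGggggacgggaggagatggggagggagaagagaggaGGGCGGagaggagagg
Abcc9: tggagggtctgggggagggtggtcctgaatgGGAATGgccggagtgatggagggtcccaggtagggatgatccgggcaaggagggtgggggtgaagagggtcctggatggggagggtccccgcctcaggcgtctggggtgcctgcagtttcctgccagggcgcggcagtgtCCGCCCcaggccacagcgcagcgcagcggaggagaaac
Kcnip2: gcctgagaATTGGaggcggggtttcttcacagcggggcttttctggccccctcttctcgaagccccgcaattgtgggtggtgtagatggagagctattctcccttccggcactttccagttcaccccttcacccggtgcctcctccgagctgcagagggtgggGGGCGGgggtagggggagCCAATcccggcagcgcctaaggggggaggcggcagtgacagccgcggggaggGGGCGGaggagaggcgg

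The 9 motifs searched on both strands of the whole windows were the hypoxia response core ACGTG, the E-box CACGTG, within which ACGTG lies, the GATA motif AGATAA, the MEF2 motif, the CArG box, the CCAAT box CCAAT, the GC box GGGCGG, the TATA box TATAAA, which can lie within a MEF2 or CArG match, and the TEAD motif GGAATG. The GC box was in the windows of 7 of the 8 genes, all but Kcnd3, and in 35.7% of the 32851 RefSeq windows. Its match in Kcnj3 lies past the start site, outside the stretch shown. Cut to bases outside exons, the 8 promoters were 57.8% (Kcnj5) to 73.6% (Kcnh2) G or C. The share of windows with a GC box at a like G and C content was not computed. CCAAT was in 3 of the 8, Kcnj2, Kcnj3 and Kcnip2, and in 37.4% of all windows. The single CACGTG, in Kcnj2, is also the only ACGTG, and these are in 7.15% and 19.6% of all windows. Abcc9 alone had GGAATG, which is in 14.7% of windows, and a MEF2 match, found in 3.19%, that lies at the start site outside the stretch shown. AGATAA (11.2% of all windows), the CArG box (1.63%) and TATAAA (13.6%) were in 0 of the 8. None of the 9 motifs was in all 8 windows, and the window of Kcnh2 lies around a RefSeq start 22013 bases downstream of the gene start in the table's annotation. A match is a description of letters and was not tested as a binding site.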

How the data were processed

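The authors deposited whole-number counts of fragments per gene, without normalization, for 9 libraries of cultured ventricular myocytes. Per the file headers these counts were made with featureCounts 2.0.1 on the exons of GENCODE release 25, in paired-end mode and with no strand option. The submitters' notes name HISAT2 and the mm10 build (GRCm38). All 9 columns were read, and 0 were left unused. Each library was put in its group from its label.

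The model was fitted with edgeR 4.0.16 in R 4.3.3 (filterByExpr, TMM scaling, a mean per group, quasi-likelihood test, Benjamini-Hochberg adjustment over 16762 genes). Calls needed both an adjusted p under 0.05 and a change of 1.5-fold or more. The standard error of a log2 fold change is its size over the square root of F. The test was checked on simulated data. The 10 genes and the lists were chosen with earlier results of these data known. The genes named are the 10 channel genes, other subunits with a mean of at least 2 CPM, partner, receptor and regulator genes called in hypoxia against control or hypoxia + rSRGN against hypoxia, the most abundant marker of each list, and the 5 genes most like Kcnj5. Log2 CPM for the likeness had a prior count of 2. Exceptions are marked in the text, and a few genes of the lists are not reported here. Ratios use counts per kb without a pseudocount. Protein sequences were not used here. Plots were drawn with matplotlib 3.10.9 in Python 3.11.15.

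Alternatives replaced edgeR by DESeq2 1.42.0, TMM by RLE or by library size alone, and the filter by at least 1 count over all libraries or at least 10 counts in every library. Others used the unadjusted p, dropped the fold limit, fitted only the 2 groups of a comparison, took the replicate number as a block, left out each library in turn, or added a pseudocount of 0.5 to the ratios.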

Additional observations from a re-analysis of the deposited data

How the results depend on the processing

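In hypoxia against control and in hypoxia + rSRGN against control, 10 of the 10 channel genes were called under every alternative except a filter of at least 10 counts in every library, under which Kcnd2, Kcnd3 and Kcnip2 were not tested and the other 7 were called. Leaving out each library in turn gave 10 and 10 called channel genes in these comparisons, and 6 to 7 in hypoxia + rSRGN against hypoxia. There the count of 7 was 6 with DESeq2 (without Kcnip2), 6 with at least 10 counts in every library, 8 with the unadjusted p (with Kcnd2) and 8 with no fold change limit (with Kcnj5). With only the 2 groups compared, Kcnd3 was not tested. Over all genes, leaving out each library gave 8496 to 8952 calls beside 8644 in hypoxia against control, 321 to 699 beside 525 in hypoxia + rSRGN against hypoxia and 8028 to 8535 beside 8183 in hypoxia + rSRGN against control. The 525 became 899 with the unadjusted p and 2790 with no fold change limit, which ease the call by construction. Deviations from the group means were no more alike between libraries of the same replicate number (r of -0.04 to 0.02) than between others (-0.05 to 0.05). This does not show whether libraries of 1 number shared a culture. With the replicate number as a block 10, 7 and 10 channel genes and 8550, 495 and 8096 of all genes were called. Of 530 values for the channel genes under alternatives, 525 kept their direction and side of the threshold, 3 were no longer called, 2 became called and 0 changed sign. Of 1689 values for other called genes, 1673 kept both and 16 were no longer called, among them values of Chrm2, Kcnj12, Myh6, Akap9 and Gnb2. Of 1008 values for other genes not called, 939 kept both, 32 became called and 37 in 13 genes changed sign, between -0.30 and 0.17. Scaling moved the median of all genes by at most 0.068 (log2). Of 96 list medians under other scalings 93 moved by less than 1 SD between libraries. Of 70 ratio values with a pseudocount of 0.5 or a library left out, 70 moved by less than 1 SD. Depth limits Kcnd2, Kcnd3 and Kcnip2 most, with 5 to 50 counts in a hypoxia library.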
